A study of Mus musculus with 19 samples.

Results

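Interferon-induced antiviral genes and GTPases are a set of 41 gene symbols, chosen by name from a table of raw counts. The table held 42 rows for them among 46983 genes, because Gbp6 appears under 2 identifiers, and 41 of the 42 rows had enough counts to be tested. The second Gbp6 row (ENSMUSG00000079362.5, mean CPM of 0.0552 to 0.123 by group) was too low. Symbols were grouped by role into 10 Gbp, Igtp and Irgm genes, 11 Ifit, Oas and Mx genes, 5 transcription factors and signal regulators, 5 nucleic acid sensors, 8 other antiviral effectors and 2 other interferon-inducible GTPases.

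RNA came from 19 samples of tumours of 4T1 cells, a mouse mammary carcinoma line, implanted at 1000000 cells in BALB/cAnN mice. Control tumours (line 4T1-Sc) and tumours with a knockdown of lactate dehydrogenase A (LDHA-KD, line 4T1-KD) received IgG or anti-CTLA-4, an antibody against an inhibitory receptor of T cells, in 3 doses 3 days apart from day 3. Control tumours with IgG had 4 libraries (replicates 1, 3, 4 and 5) and 5 libraries, replicates 1 to 5, made up each of the other 3 groups. How the knockdown was made, whether either line was 1 clone, the amount of antibody and the age of the mice are not stated in the labels. As each kind of tumour came from 1 line, the knockdown cannot be told apart from other differences between the lines. No label says that replicates came from separate animals, and the p-values therefore reflect only how far these libraries spread, which may be technical.

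Interferons are cytokines that switch on a large set of genes in the cells that receive them. Type I interferons (alpha and beta) signal through a complex that includes STAT2 and IRF9, which binds the interferon-stimulated response element (ISRE) and drives Ifit, Oas and Mx genes, best known for blocking viral RNA and proteins. Interferon-gamma, made mainly by T cells and natural killer cells, acts through the gamma-activated site (GAS) and drives guanylate-binding proteins (Gbp) and immunity-related GTPases (Igtp, Irgm), which attack membranes around intracellular pathogens. Many of these genes respond to either kind of interferon, so the division is one of degree.

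Counts are given as CPM, the counts in each 1000000 of a library, scaled by the trimmed mean of M-values (TMM). Libraries held 31783272 to 43266699 gene counts, and 3 counts, the limit that a count of 0 allows, came to 0.0693 to 0.0944 CPM. Ldha itself ran from 1283 to 2244 CPM in control libraries and from 452 to 584 CPM in LDHA-KD libraries, without overlap. The epithelial markers (Epcam, Krt8, Krt18, Krt14, Krt5 and Cdh1) summed to between 2013 and 4586 CPM, and none was at 0 in all 19 libraries. Control anti-CTLA-4 replicates 3 and 5 and LDHA-KD anti-CTLA-4 replicates 3 and 5 stood apart on the second principal component (17.0% of the variance), and the counts below are also given without them where they move.

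Promoter sequence shows how the 2 kinds of response element are laid out in these genes. RefSeq entries on GRCm38.p6 were matched by symbol for 30 of the 41 members, and the 250 bases before the start were searched on both strands for an ISRE core (GAAA, any 2 bases, GAAA) and a GAS (TTCNNNGAA). The ISRE core was found in 2.98% of 32851 promoters, the GAS in 7.02% and both in 0.332%. These shares count every entry, whereas a member counts once if any of its entries holds the motif (36 entries for the 30 members). The 2 measures are therefore not quite alike. Among the Gbp, Igtp and Irgm genes, 7 of 7 with an entry held the ISRE core and 4 of 7 also held a GAS. Of the Ifit, Oas and Mx genes, 5 of 8 with an entry held the ISRE core and 2 of 8 a GAS. Gbp4, Gbp6, Gbp9, Oas2, Mx1, Mx2, Usp18, Dhx58, Zbp1, Rtp4 and Iigp1 had no entry, so no Mx gene was searched. Over all members, 17 held the ISRE core, 11 a GAS, 7 both and 9 neither. A match is only a run of letters, and no binding was measured. Of members that passed the threshold in a comparison below, Isg20 and Ifit2 hold a GAS and no ISRE core. Irf7 and Ddx58, which also passed, hold neither, and no window is shown for any of these. The windows below are of chosen genes that hold a match, whether or not they passed, with each match in capitals (TTTC, any 2 bases, TTTC is the ISRE core read from the other strand). In the Gbp, Igtp and Irgm genes and in Tgtp1, a related GTPase, they are as follows.
Gbp5, chr3:142496754-142496793, + strand: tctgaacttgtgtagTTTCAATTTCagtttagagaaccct
Gbp7, chr3:142530215-142530307, + strand: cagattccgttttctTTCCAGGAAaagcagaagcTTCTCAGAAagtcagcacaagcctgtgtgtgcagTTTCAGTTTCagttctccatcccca
Igtp, chr11:58199496-58199546, + strand: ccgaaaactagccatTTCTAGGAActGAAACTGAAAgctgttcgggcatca
Irgm2, chr11:58214887-58214937, + strand: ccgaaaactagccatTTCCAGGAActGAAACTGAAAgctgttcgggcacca
Tgtp1, chr11:48992299-48992349, - strand: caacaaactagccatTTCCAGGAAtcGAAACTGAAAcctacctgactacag
All stretches shown, these and the following, lie before a RefSeq start and outside the exons of GENCODE M21. Those of Gbp5, Irgm2 and Tgtp1 lie within the locus as GENCODE draws it, between its exons. Gbp5 also holds 2 GAS outside the stretch shown. In Igtp, Irgm2 and Tgtp1 a GAS and an ISRE core lie side by side with a pair of bases between them. Among the Ifit and Oas genes, Ifit1 and Ifit3 hold a pair of ISRE cores each, and Oas1a holds a GAS and, next to its start, overlapping ISRE cores. Ifit3b has the same 74 bases as the Ifit3 window, with 0 differences.
Ifit1, chr19:34640770-34640828, + strand: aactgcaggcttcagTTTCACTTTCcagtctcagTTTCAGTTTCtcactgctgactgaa
Ifit3, chr19:34583358-34583431, + strand: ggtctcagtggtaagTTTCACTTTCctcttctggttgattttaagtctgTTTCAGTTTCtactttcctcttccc
Oas1a, chr5:120907526-120907638, - strand: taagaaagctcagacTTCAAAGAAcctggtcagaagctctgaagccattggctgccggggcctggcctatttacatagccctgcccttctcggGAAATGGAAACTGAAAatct
Isg15 and Bst2, antiviral effectors, hold overlapping ISRE cores, and in Bst2 a GAS overlaps them as well. Irf8 holds 2 GAS and no ISRE core, while Stat2 holds an ISRE core and no GAS.
Isg15, chr4:156200860-156200911, - strand: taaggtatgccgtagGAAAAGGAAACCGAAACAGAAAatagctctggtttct
Bst2, chr8:71537572-71537623, - strand: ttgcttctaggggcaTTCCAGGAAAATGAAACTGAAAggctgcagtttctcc
Irf8, chr8:120736172-120736228, + strand: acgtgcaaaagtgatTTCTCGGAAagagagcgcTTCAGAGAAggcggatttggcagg
Stat2, chr10:128270261-128270300, + strand: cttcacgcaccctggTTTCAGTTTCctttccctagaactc

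Per kilobase of exon, Bst2 (tetherin, which holds budding virus at the cell surface) had the highest mean of the members in control IgG libraries, 168 CPM per kb. Gbp2 followed at 124 and Isg15, a ubiquitin-like modifier, at 109 CPM per kb. In LDHA-KD anti-CTLA-4 libraries Gbp2 was above Bst2, at 178 against 160.1 CPM per kb. In control IgG libraries Igtp stood at 72.9 CPM per kb, against 24.9 for Ifit1, 23.8 for Oas1a and 4.02 for Mx1. Gbp6 was the lowest of the tested members at 0.836 CPM per kb.

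The first comparison set LDHA-KD against control tumours under IgG. Irf8, Dhx58, Gbp5, Stat2, Irf7 and Ifit2 were higher in LDHA-KD than in control tumours, and no member was lower. These 6 of 41 members past an adjusted p of 0.05 (edgeR's quasi-likelihood test with Benjamini-Hochberg adjustment over 16763 genes) are 14.6%, against 34.3% of all genes tested (16.8% higher and 17.5% lower). The members' share was below that background; whether the shares differ was not tested. The groups did not overlap for 3 members, all higher (15.1% of all genes were apart and higher, 15.2% apart and lower). At an unadjusted p under 0.05 there were 8 members, against 43.8% of all genes. The median log2 fold change was 0.10 over the members and -0.002 over all genes. In these bulk samples, more cells of a type and more RNA per cell cannot be told apart. By role, 3 of 5 factors and regulators, 1 of 5 sensors, 1 of 10 Gbp, Igtp and Irgm genes and 1 of 11 Ifit, Oas and Mx genes were higher. Without control IgG replicate 4 the count was 3, with Irf8 and Dhx58 higher, Usp18 lower, and Gbp5, Stat2, Irf7 and Ifit2 no longer past the threshold.

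Under anti-CTLA-4 the calls went in both directions. Irf8, Stat2, Gbp5 and Dhx58 were higher in LDHA-KD than in control tumours, and Isg20, Usp18, Ifit3b, Oas1a, Ddx58, Ifit3 and Mx2 were lower. That is 11 of 41 members, or 26.8%, against 40.0% of all genes tested (20.2% higher and 19.8% lower). Scaled by library totals alone, which moves the median of all genes by 0.098, 7 members were called (4 higher and 3 lower). The groups did not overlap for 6 members, all lower (11.6% of all genes were apart and higher, and another 11.6% apart and lower). Those were Ifit1, which missed the threshold, Ifit3, Ifit3b, Oas1a, Isg20 and Usp18. At an unadjusted p under 0.05 there were 14 members, against 48.9% of all genes. Of the Ifit, Oas and Mx genes 4 of 11 were lower and 0 higher, and of the Gbp, Igtp and Irgm genes 1 of 10 was higher and 0 lower. Without control anti-CTLA-4 replicate 3 the count was 6 (2 higher and 4 lower), and without the 4 libraries apart on the second component it was 4 (Usp18 and Isg20 lower, Irf8 and Gbp5 higher).

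**Figure D1:**
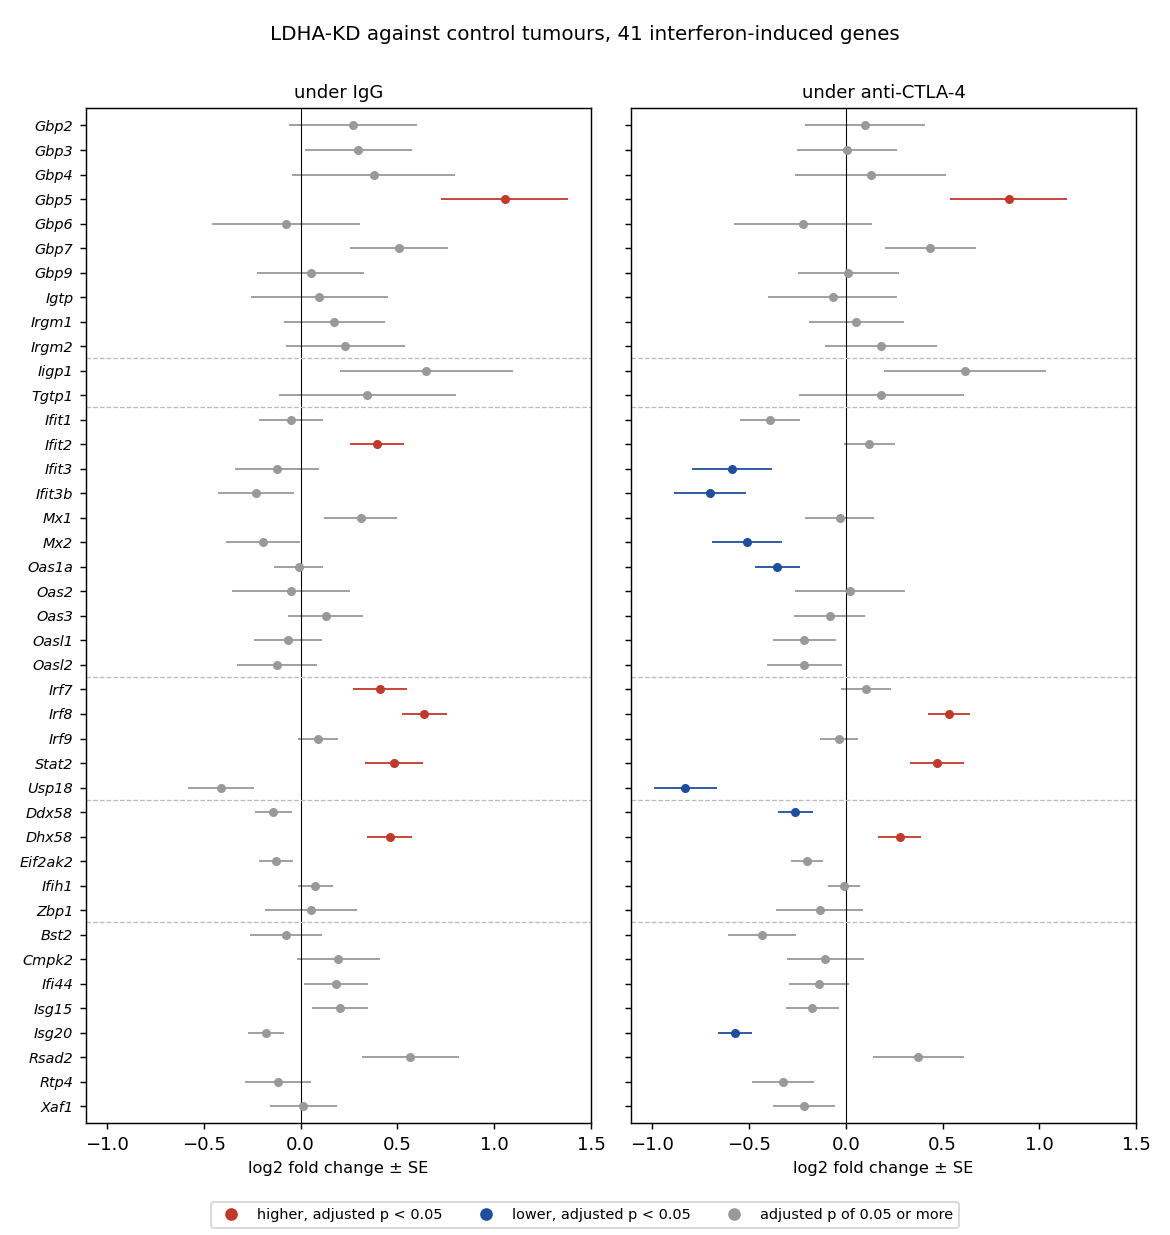
Log2 fold change of each of the 41 tested members in LDHA-KD against control tumours, under IgG (left) and anti-CTLA-4 (right), with bars of 1 standard error (SE) and dashed lines between the groups of genes. Red points are higher and blue points lower at an adjusted p under 0.05. Under IgG 6 points are red and none is blue, and under anti-CTLA-4 4 are red and 7 blue.

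Irf8, an interferon regulatory factor that macrophages and dendritic cells need to develop, had the smallest p of the higher members in both comparisons. Under IgG its CPM was 54.8, 65.7, 49.6 and 59.4 in control libraries and 86.6, 93.7, 87.3, 84.5 and 94.7 in LDHA-KD libraries. Every LDHA-KD library lay above every control library, with a log2 fold change of 0.64 ± 0.12 (SE) and an edgeR adjusted p of 0.000313. Under anti-CTLA-4 it was 59.7, 72.6, 61.9, 50.8 and 76.8 CPM in control and 100.2, 71.8, 99.3, 94.8 and 99.5 CPM in LDHA-KD libraries. LDHA-KD replicate 2 fell among the control values and the other 4 were above them, with a log2 fold change of 0.53 ± 0.11 (SE) and an edgeR adjusted p of 0.000736.

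Stat2, a transcription factor of type I signalling, stood at 87.9, 85.5, 62.5 and 70.7 CPM in control and 101, 112, 94.1, 106 and 123 CPM in LDHA-KD libraries with IgG. The groups did not overlap, and the log2 fold change was 0.48 ± 0.15 (SE) (edgeR adjusted p = 0.0177). With anti-CTLA-4 it had 87.7, 96.3, 77.01, 81.3 and 122 CPM in control and 109, 101, 165, 124 and 144 CPM in LDHA-KD libraries. Control replicate 5 reached into the LDHA-KD range, and the log2 fold change was 0.47 ± 0.14 (SE) (edgeR adjusted p = 0.012).

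Irf7, the factor that amplifies type I interferon production, had 78.6, 74.4, 63.9 and 61.4 CPM in control and 77.4, 111, 76.4, 99.8 and 98.2 CPM in LDHA-KD libraries with IgG. Its groups overlapped, and it was higher by 0.41 ± 0.14 (SE) on the log2 scale (edgeR adjusted p = 0.0273). With anti-CTLA-4 the values were 90.8, 82.6, 92.7, 72.7 and 86.1 CPM in control and 95.9, 64.2, 106, 84.9 and 106 CPM in LDHA-KD libraries, which ranged both below and above the controls (log2 difference 0.10, edgeR adjusted p = 0.542). Irf9, the DNA-binding partner of STAT2, gave log2 differences of 0.09 with IgG and -0.03 with anti-CTLA-4, neither past the threshold.

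Usp18 (chr6:121245906-121270917, + strand, GRCm38), the protease that removes ISG15 from proteins and restrains the type I receptor, went the other way. With anti-CTLA-4 it had 82.1, 56.3, 71.6, 64.8 and 77.2 CPM in control and 39.4, 33.4, 45.5, 38.3 and 41.7 CPM in LDHA-KD libraries. Every LDHA-KD library was below every control library, with a log2 fold change of -0.83 ± 0.16 (SE) and an edgeR adjusted p of 0.000531. With IgG it had 82.7, 54.7, 42.6 and 40.6 CPM in control and 36.2, 47.1, 34.0, 47.4 and 42.7 CPM in LDHA-KD libraries. Control replicates 1 and 3 were above all 5 LDHA-KD libraries and the other 2 were among them (log2 difference -0.41, edgeR adjusted p = 0.07). It passed as lower under IgG without control IgG replicate 4 or 5.

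Dhx58 (chr11:100694884-100704271, - strand) encodes LGP2, a helicase that tunes RNA sensing. It was at 32.9, 29.7, 22.3 and 23.9 CPM in control and 35.1, 42.2, 31.2, 37.2 and 41.6 CPM in LDHA-KD libraries with IgG, a log2 fold change of 0.46 ± 0.12 (SE) (edgeR adjusted p = 0.00487). Only the lowest LDHA-KD library lay below the highest control library. Under anti-CTLA-4 Dhx58 was at 29.8, 30.6, 28.2, 26.2 and 31.4 CPM in control and 35.9, 29.8, 41.3, 36.1 and 34.4 CPM in LDHA-KD libraries, a log2 fold change of 0.28 ± 0.11 (SE) (edgeR adjusted p = 0.0499). That call lies at the threshold and was kept in 10 of 27 alternative analyses.

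Of the other sensors, 1 passed the threshold. Ddx58 (RIG-I) was lower under anti-CTLA-4, with a log2 fold change of -0.26 ± 0.09 (SE) (edgeR adjusted p = 0.0282), and its difference under IgG was -0.14. Ifih1 (MDA5), a sensor of long double-stranded RNA, gave 0.08 and -0.01, and Eif2ak2 (PKR), which halts translation, gave -0.13 and -0.20, none past the threshold. Zbp1 senses Z-form nucleic acid and can trigger cell death. It had 126, 102, 56.8 and 80.0 CPM in control IgG, 119.6, 114, 93.4, 100.5 and 193 CPM in control anti-CTLA-4, 93.0, 111, 72.5, 86.8 and 109.8 CPM in LDHA-KD IgG and 106, 68.9, 149.5, 116 and 125 CPM in LDHA-KD anti-CTLA-4 libraries. Its groups overlapped in both comparisons, with log2 differences of 0.05 and -0.13.

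Gbp5, which promotes inflammasome assembly, was the one Gbp, Igtp or Irgm gene past the threshold. With IgG its CPM was 32.9, 43.5, 16.5 and 29.8 in control and 58.2, 69.6, 53.9, 58.1 and 78.5 in LDHA-KD libraries. The groups did not overlap, and the log2 fold change was 1.05 ± 0.33 (SE) (edgeR adjusted p = 0.0173). With anti-CTLA-4 it was 34.1, 51.9, 23.8, 37.0 and 90.7 CPM in control and 75.0, 49.5, 124, 86.7 and 90.5 CPM in LDHA-KD libraries. Control replicate 5 was above 4 of the 5 LDHA-KD libraries, and the log2 fold change was 0.84 ± 0.30 (SE) (edgeR adjusted p = 0.0324). The call under anti-CTLA-4 was kept in 20 of 27 alternative analyses, and it was lost without control anti-CTLA-4 replicate 1, 3 or 4, without LDHA-KD anti-CTLA-4 replicate 3, 4 or 5, and in a fit of only the groups compared.

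Gbp2, the most abundant member of its family here, had 384, 408, 149 and 306 CPM in control IgG and 352, 457, 289.9, 335 and 448 CPM in LDHA-KD IgG libraries. With anti-CTLA-4 it had 335, 451, 162, 362 and 778 CPM in control and 458, 301, 590.2, 476 and 413 CPM in LDHA-KD libraries. Control replicate 4 with IgG and control replicate 3 with anti-CTLA-4 were the lowest and control replicate 5 with anti-CTLA-4 the highest, and the log2 differences of 0.27 ± 0.33 (SE) and 0.10 ± 0.31 (SE) were within their errors.

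Igtp showed the same extremes, with 179, 188, 70.5 and 152 CPM in control IgG and 159.5, 229, 77.5, 158 and 418 CPM in control anti-CTLA-4 libraries. The LDHA-KD values were 148, 185, 124, 137 and 193 CPM in the IgG group and 199, 117, 272, 204 and 202 CPM in the anti-CTLA-4 group. Its log2 differences were 0.10 ± 0.35 (SE) and -0.07 ± 0.33 (SE). Irgm1, which protects host membranes from the other GTPases, had 169, 195, 87.7 and 169 CPM in control IgG and 153, 215, 103, 167 and 325 CPM in control anti-CTLA-4 libraries. The LDHA-KD values were 164, 202, 148, 162 and 199 CPM under IgG and 194, 139, 268, 201 and 197 CPM under anti-CTLA-4. With IgG, LDHA-KD replicates 2 and 5 were above every control library and the other 3 lay within the control range, and with anti-CTLA-4 all 5 lay within it.

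Of the other members of this family, Gbp7 had the largest log2 differences, 0.51 ± 0.25 (SE) with IgG and 0.44 ± 0.23 (SE) with anti-CTLA-4, and did not pass. Gbp3, Gbp4, Gbp6, Gbp9 and Irgm2 lay between -0.08 and 0.38 with IgG and between -0.22 and 0.18 with anti-CTLA-4. Iigp1, an effector GTPase of the same kind, gave 0.65 ± 0.45 (SE) and 0.61 ± 0.42 (SE), and Tgtp1 gave 0.34 ± 0.46 (SE) and 0.18 ± 0.42 (SE), none past the threshold. Reads of Tgtp1 are uncertain, because 81.2% of its 50-base words occur in another gene (mainly Tgtp2), and so are those of Gbp6 (70.7%). The loci of Gbp4 and Gbp9 overlap each other, as do those of Igtp and Irgm2.

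Among the Ifit genes, whose proteins bind viral RNA, Ifit3 had 34.1, 29.5, 33.4, 32.8 and 42.4 CPM in control and 24.7, 18.8, 25.8, 24.2 and 21.0 CPM in LDHA-KD libraries with anti-CTLA-4. The groups did not overlap, and it was lower in LDHA-KD, with a log2 fold change of -0.59 ± 0.20 (SE) (edgeR adjusted p = 0.0283). With IgG it had 46.3, 27.6, 17.5 and 22.8 CPM in control and 20.6, 36.0, 19.5, 26.9 and 28.2 CPM in LDHA-KD libraries, which overlapped widely (log2 difference -0.12). Its neighbour Ifit3b had 13.2, 13.4, 15.8, 15.2 and 17.4 CPM in control and 9.44, 7.67, 11.1, 9.02 and 8.84 CPM in LDHA-KD libraries with anti-CTLA-4, again without overlap (log2 fold change -0.70 ± 0.19 (SE), edgeR adjusted p = 0.00558). With IgG the values were 18.1, 11.3, 8.44 and 10.9 CPM in control and 9.39, 14.4, 6.94, 11.1 and 9.96 CPM in LDHA-KD libraries. Reads of the pair are hard to separate, since 51.2% of the 50-base words of Ifit3 and 45% of those of Ifit3b occur in another gene, so they are not independent.

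Ifit1 had 75.4, 73.1, 78.0, 77.05 and 95.7 CPM in control and 65.5, 51.0, 64.5, 61.1 and 62.5 CPM in LDHA-KD libraries with anti-CTLA-4. The groups did not overlap, yet the log2 difference of -0.39 ± 0.16 (SE) missed the threshold (edgeR adjusted p = 0.053). With IgG it had 93.7, 66.7, 48.3 and 56.2 CPM in control and 54.7, 81.7, 47.4, 72.9 and 62.8 CPM in LDHA-KD libraries (log2 difference -0.05). Ifit2, the one Ifit, Oas or Mx gene called higher, averaged 41.8 ± 7.68 CPM (SD, n = 4) in control and 54.9 ± 10.7 CPM (n = 5) in LDHA-KD IgG libraries (log2 fold change 0.40 ± 0.14 (SE), edgeR adjusted p = 0.0338). That call was kept in 19 of 27 alternative analyses. It was lost without control IgG replicate 4 or 5, without LDHA-KD IgG replicate 2, 4 or 5 and without the 4 libraries apart on the second component. It was also lost in a fit of only the groups compared and with the replicate number as a block. With anti-CTLA-4 its difference was 0.12.

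Active enzymes of the Oas family make the second messenger that activates RNase L. Oas1a had 51.3, 48.2, 56.9, 47.3 and 58.2 CPM in control and 40.7, 34.4, 44.5, 41.4 and 44.0 CPM in LDHA-KD libraries with anti-CTLA-4, without overlap. It was lower in LDHA-KD, with a log2 fold change of -0.35 ± 0.12 (SE) (edgeR adjusted p = 0.022). With IgG the values were 59.9, 44.2, 34.2 and 40.9 CPM in control and 42.8, 50, 40.7, 40.9 and 48.0 CPM in LDHA-KD libraries, and 57.6% of its 50-base words occur in another gene, Oas1g. Oas2 had 31.4, 24.3, 16.6 and 19.6 CPM in control IgG, 23.4, 22.9, 19.5, 20.1 and 25.2 CPM in LDHA-KD IgG and 33.3, 25.1, 38.2, 23.5 and 46.1 CPM in control anti-CTLA-4 libraries. In LDHA-KD anti-CTLA-4 libraries it had 18.1, 19.6, 61.7, 24.1 and 45.3 CPM, where replicates 3 and 5, both apart on the second component, were the high ones. Oas3, Oasl1 and Oasl2 gave log2 differences of 0.13, -0.07 and -0.12 with IgG and -0.08, -0.21 and -0.21 with anti-CTLA-4, none past the threshold.

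Mx proteins are GTPases that block viral nucleocapsids. GENCODE M21 lists Mx2 as a polymorphic pseudogene, and whether these tumours make a working Mx protein was not measured. Mx1 had 21.4, 15.7, 9.93 and 13.8 CPM in control IgG and 15.3, 23.5, 14.7, 20.6 and 20.3 CPM in LDHA-KD IgG libraries. With anti-CTLA-4 it had 15.0, 15.9, 18.9, 13.2 and 17.98 CPM in control and 16.9, 12.4, 18.5, 13.8 and 17.5 CPM in LDHA-KD libraries, and the log2 differences of 0.31 and -0.03 did not pass. Mx2 was lower in LDHA-KD libraries with anti-CTLA-4 (18.8 ± 2.60 against 13.2 ± 1.91 CPM, SD, n = 5 each, log2 fold change -0.51 ± 0.18 (SE), edgeR adjusted p = 0.0303). With IgG its difference was -0.20.

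Isg20 (chr7:78913424-78920396, + strand), an exonuclease that degrades viral RNA, had the smallest p of any member under anti-CTLA-4. It had 85.6, 66.2, 79.5, 70.1 and 75.1 CPM in control and 52.1, 44.4, 51.9, 52.0 and 52.9 CPM in LDHA-KD libraries, with no overlap. The log2 fold change was -0.57 ± 0.09 (SE), with an edgeR adjusted p of 5.02e-05. With IgG it had 68.0, 59.5, 57.1 and 47.4 CPM in control and 50.2, 55.5, 47.5, 51.4 and 51.8 CPM in LDHA-KD libraries, which overlapped (log2 difference -0.18, edgeR adjusted p = 0.146).

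Isg15 had 111, 82.5, 62.4 and 73.5 CPM in control IgG and 84.5, 116, 81.7, 94.5 and 97.2 CPM in LDHA-KD IgG libraries. With anti-CTLA-4 it had 106, 93.9, 105, 93.7 and 123 CPM in control and 105, 70.9, 95.7, 92.0 and 98.3 CPM in LDHA-KD libraries. The groups overlapped both times, and the log2 differences were 0.20 ± 0.15 (SE) and -0.17 ± 0.14 (SE). Bst2 had 223, 147, 116 and 119 CPM in control IgG and 134, 160.3, 122, 148 and 154 CPM in LDHA-KD IgG libraries. Under anti-CTLA-4 it had 235, 161, 178, 171 and 231 CPM in control and 173, 92.9, 150, 149 and 158 CPM in LDHA-KD libraries, and its log2 difference of -0.43 ± 0.18 (SE) narrowly missed the threshold (edgeR adjusted p = 0.0571).

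Rsad2 (viperin), Cmpk2, Ifi44, Rtp4 and Xaf1 were not called in either comparison. Rsad2 had the largest difference of them, 0.57 ± 0.25 (SE) with IgG (edgeR adjusted p = 0.0893) and 0.38 ± 0.23 (SE) with anti-CTLA-4. The other 4 lay between -0.12 and 0.20 with IgG and between -0.32 and -0.10 with anti-CTLA-4.

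**Figure D2:**
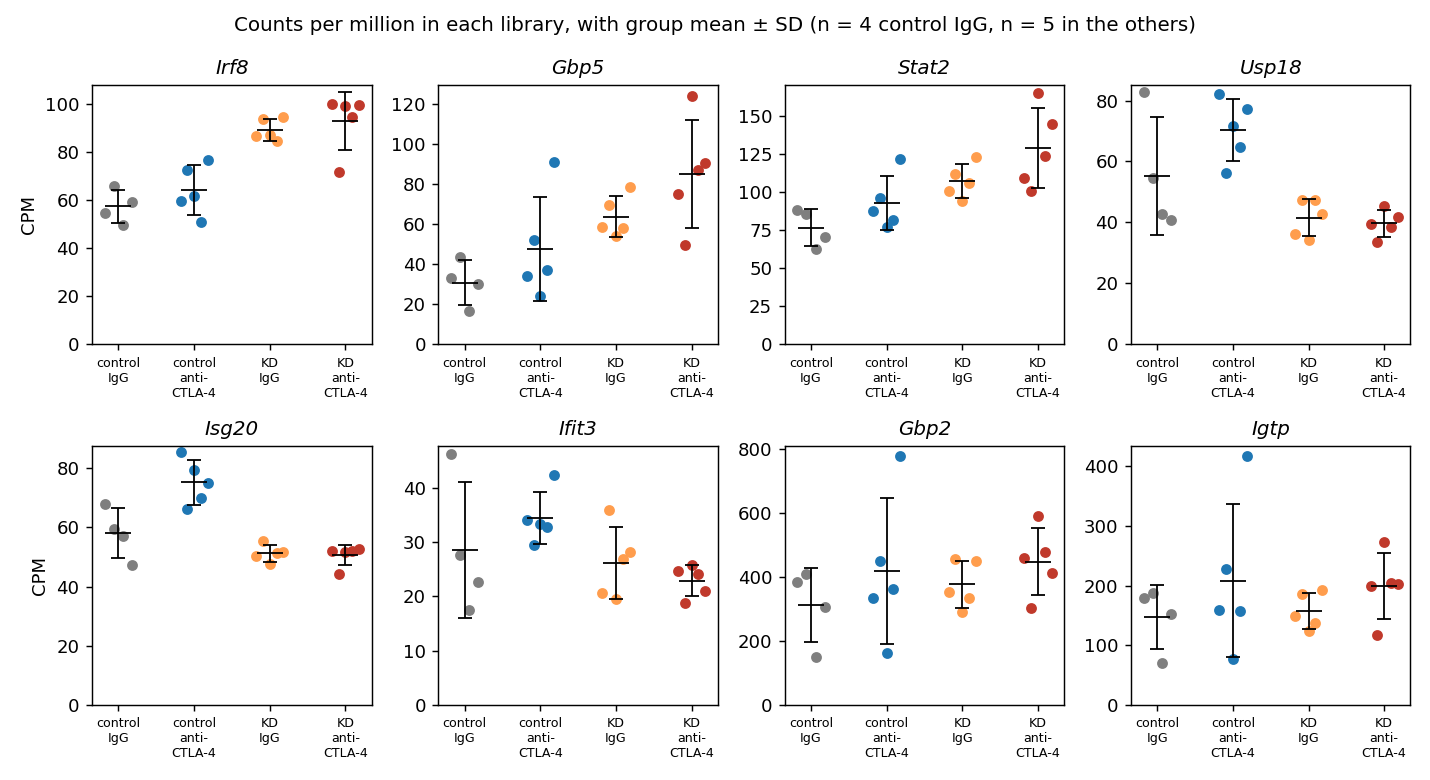
CPM of 8 members in every library, by group, with the mean and 1 SD (n = 4 in control IgG, n = 5 in the others). Irf8 and Gbp5 lie higher in LDHA-KD IgG than in control IgG libraries without overlap, Usp18, Isg20 and Ifit3 lie lower in LDHA-KD than in control libraries under anti-CTLA-4 without overlap, and Gbp2 and Igtp spread most in the control anti-CTLA-4 group.

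The rule sets the Gbp, Igtp and Irgm genes, driven mainly by interferon-gamma, against the Ifit, Oas and Mx genes, driven mainly by type I interferon. In LDHA-KD against control tumours the median log2 fold change was 0.25 for the former and -0.05 for the latter with IgG, a difference of 0.30. With anti-CTLA-4 the medians were 0.08 and -0.21, a difference of 0.29. Per library, the difference between the mean levels of the 2 lists varied within groups with a pooled SD of 0.417 on the log2 scale, to which the control anti-CTLA-4 group contributed most. Whether the lists differ in their response was not tested. Leaving out 1 library at a time gave 0.18 to 0.41 with IgG and 0.14 to 0.59 with anti-CTLA-4.

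The Gbp, Igtp and Irgm genes varied more between libraries of the same group than most genes. The SD within groups of log2(CPM + 0.5) had a median of 0.521 over these 10 genes (0.421 to 0.715), against 0.30 over the 11 Ifit, Oas and Mx genes (0.194 to 0.487) and 0.187 over all 16763 genes. Iigp1 and Tgtp1 had the widest spread of the members, 0.795 and 0.809. The sensors Ifih1 and Eif2ak2, at 0.132 each, and the effector Isg20, at 0.139, were the steadiest.

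**Figure D3:**
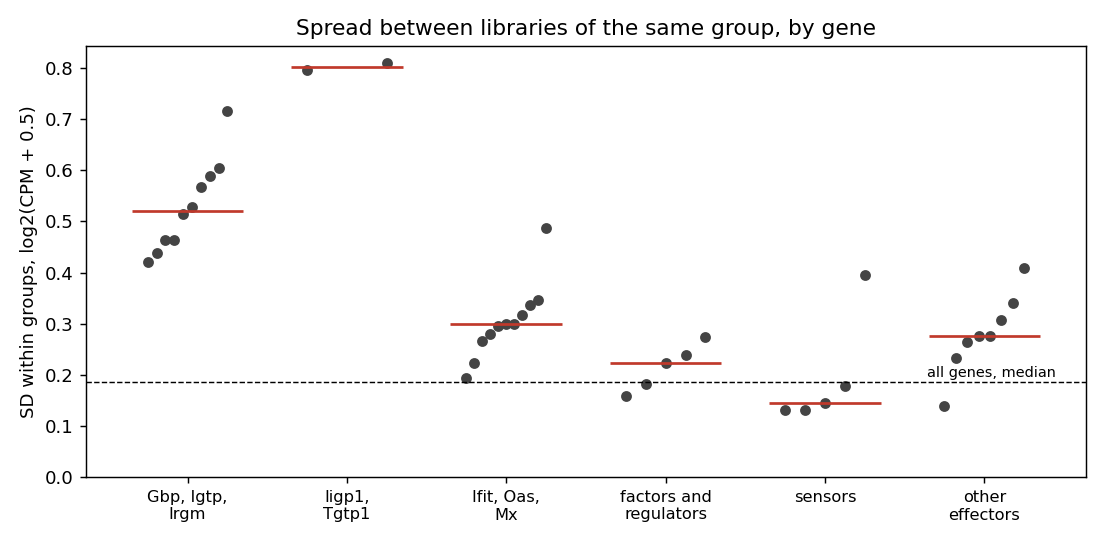
SD within groups of log2(CPM + 0.5) for each tested member, by role, with red lines at each list's median and a dashed line at the median of all genes (0.187). The 10 Gbp, Igtp and Irgm genes lie between 0.421 and 0.715, and most sensors lie below the dashed line.

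The spread was shared within the family. All 10 Gbp, Igtp and Irgm genes were lowest in the same library of their group in 3 groups, control IgG replicate 4, control anti-CTLA-4 replicate 3 and LDHA-KD anti-CTLA-4 replicate 2, and 9 of 10 were lowest in LDHA-KD IgG replicate 3. All 10 were highest in control anti-CTLA-4 replicate 5 and in LDHA-KD anti-CTLA-4 replicate 3. Their mean level, as log2(CPM + 0.5), was 5.42 in control IgG replicate 4 against 6.42 to 6.66 in the other 3, and in the control anti-CTLA-4 group it ran from 5.60 in replicate 3 to 7.58 in replicate 5.

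The Ifit, Oas and Mx genes followed the same libraries in part. In control IgG 10 of 11 were lowest in replicate 4, and all 11 were highest in replicate 1, where only 2 of 10 Gbp, Igtp and Irgm genes were. Control anti-CTLA-4 replicate 3 had a different place within its group in the 2 families. It had the lowest value of all 10 Gbp, Igtp and Irgm genes in its group and the highest value of 4 of 11 Ifit, Oas and Mx genes, with mean levels of 5.60 and 5.33. These are descriptions of single libraries, with no test.

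Ifng, the gene of interferon-gamma, is given in the same libraries. Its CPM was 0.714, 0.754, 0.298 and 0.741 in control IgG and 0.941, 1.10, 0.311, 0.456 and 2.81 in control anti-CTLA-4 libraries. In LDHA-KD libraries it was 1.26, 1.08, 1.31, 1.20 and 1.58 with IgG and 2.49, 0.837, 3.03, 2.18 and 1.92 with anti-CTLA-4. It was lowest in the same library as the Gbp, Igtp and Irgm level in 3 of the 4 groups and highest in the same library in 3 of 4, the exception both times being LDHA-KD IgG, where Ifng was lowest in replicate 2. Ifng was higher in every LDHA-KD than in every control library with IgG, but its log2 differences of 1.04 ± 0.49 (SE) (edgeR adjusted p = 0.109) and, with anti-CTLA-4, 0.91 ± 0.43 (SE) (adjusted p = 0.0964) did not pass.

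**Figure D4:**
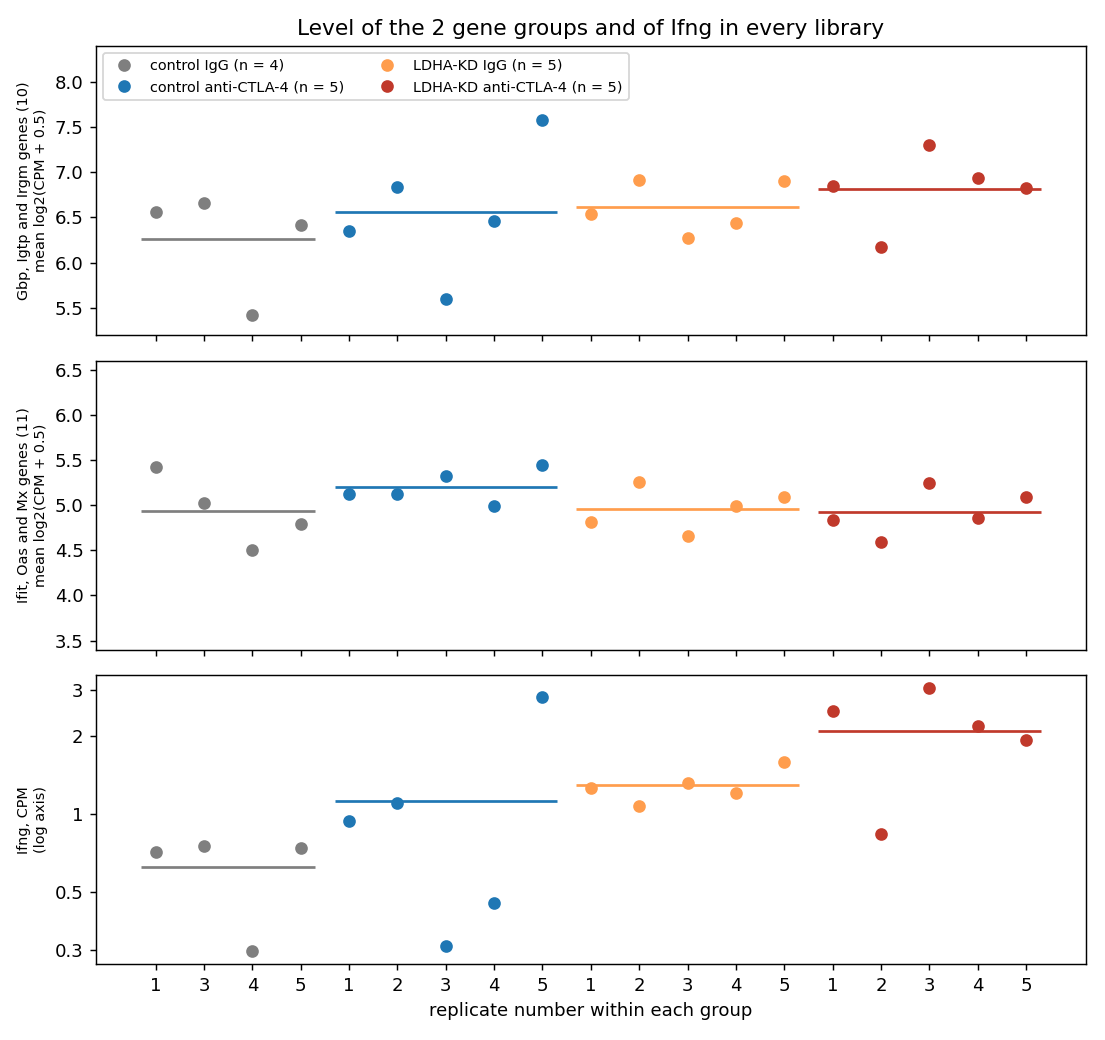
Mean log2(CPM + 0.5) of the 10 Gbp, Igtp and Irgm genes (top) and of the 11 Ifit, Oas and Mx genes (middle) and CPM of Ifng on a log axis (bottom), in every library, with a line at each group's mean. Control IgG replicate 4 and control anti-CTLA-4 replicate 3 are the lowest points at the top (5.42 and 5.60) and of Ifng (0.298 and 0.311 CPM), while in the middle control anti-CTLA-4 replicate 3 lies at 5.33.

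The comparison of anti-CTLA-4 with IgG asked what the blockade changed in each kind of tumour. No member passed in control or in LDHA-KD tumours, and 0% of all genes did by edgeR. At an unadjusted p under 0.05, 5 members were found in control tumours (Isg20, Isg15, Rsad2, Cmpk2 and Oas3, all higher, against 8.03% of all genes) and 1 in LDHA-KD tumours (Oas2, higher, against 11.9% of all genes). Groups that did not overlap numbered 0 members in either (in control tumours 0.555% of all genes were apart and higher and 0.716% apart and lower, in LDHA-KD tumours 0.817% and 0.567%). DESeq2 also called 0 members in either, with 12 and 47 genes over all. In control tumours 39 of 41 members had a log2 difference above 0 (49.1% of all genes did), with a median of 0.29. In LDHA-KD tumours 24 of 41 did (48.8% of all genes), with a median of 0.05. These signs are not separate observations, because many members vary together by library. Control IgG replicate 4 was lowest in 10 of 10 Gbp, Igtp and Irgm genes and 10 of 11 Ifit, Oas and Mx genes. Control anti-CTLA-4 replicate 5 was highest in 10 and 7 of them. In the other direction, control IgG replicate 1 was highest in 2 and 11, and control anti-CTLA-4 replicate 3 lowest in 10 and 0. In control tumours the median was 0.38 for the Gbp, Igtp and Irgm genes against 0.23 for the Ifit, Oas and Mx genes, and LDHA-KD tumours gave 0.25 against -0.12, differences of 0.15 and 0.37. The list difference per library had an SD of 0.363 in control IgG, 0.696 in control anti-CTLA-4, 0.139 in LDHA-KD IgG and 0.225 in LDHA-KD anti-CTLA-4 libraries, and the differences were not tested. Isg20 had the smallest p, with a log2 difference of 0.38 ± 0.09 (SE) in control tumours (edgeR adjusted p = 0.581).

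The interaction, the difference between the 2 blockade effects (LDHA-KD minus control), called 0 members and 0% of all genes by edgeR. At an unadjusted p under 0.05 it gave 1 member, Isg20 (-0.39 ± 0.13 (SE), adjusted p = 0.9998), against 2.48% of all genes, and DESeq2 called 0 genes. For no member was the difference between LDHA-KD and control tumours therefore shown to depend on the antibody, although the calls of the 2 comparisons differed. The blockade comparisons share libraries with the knockdown comparisons, so their values are given side by side only.

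**Figure D5:**
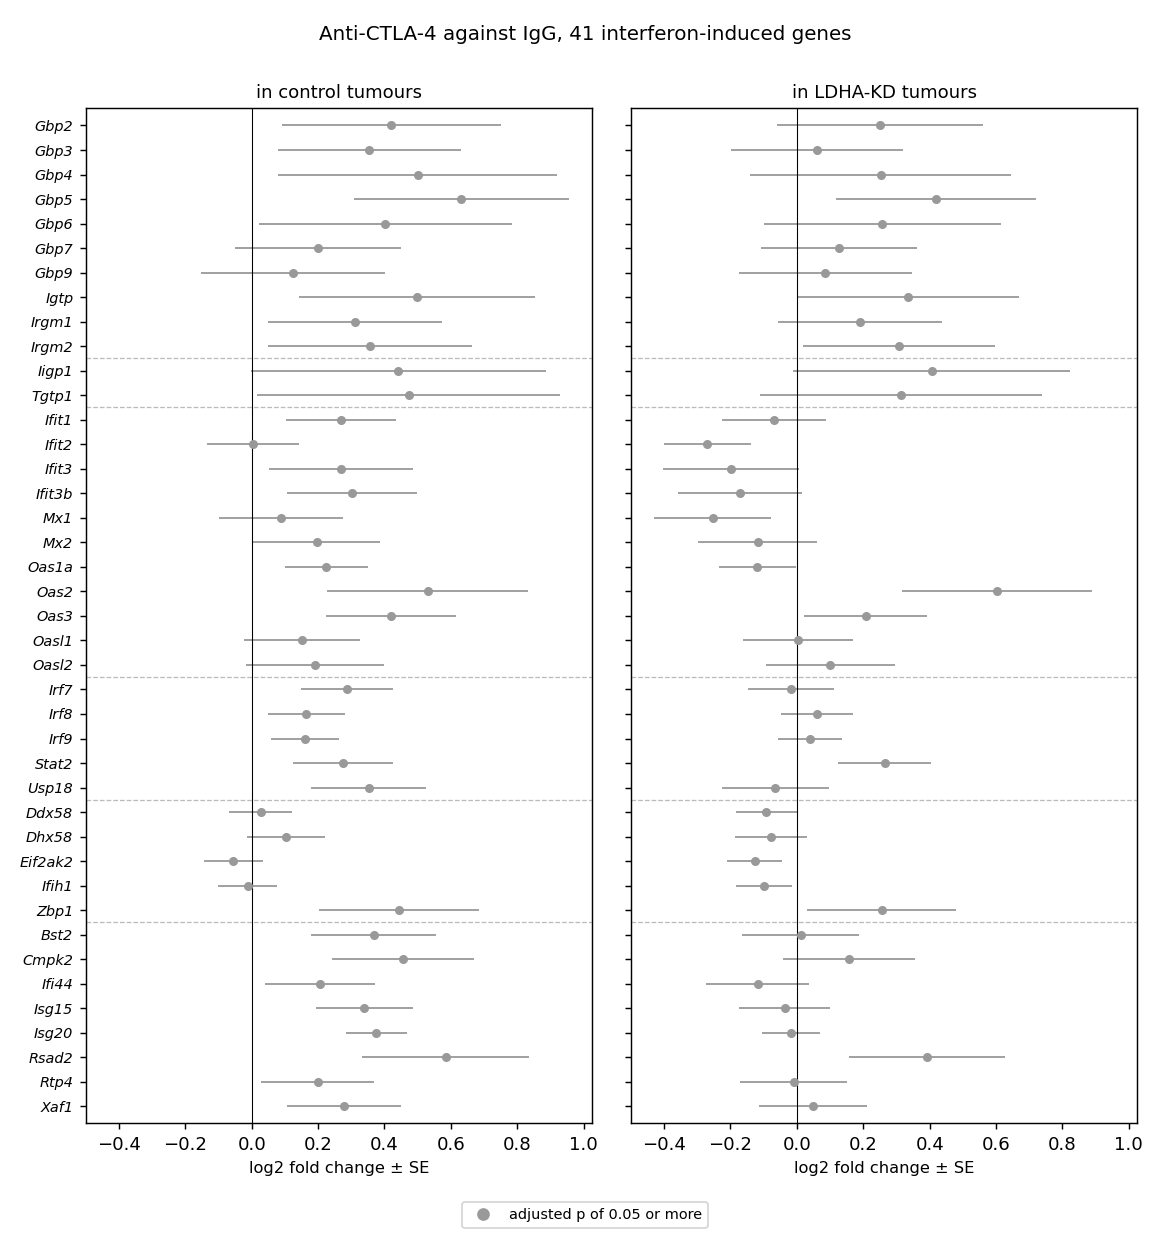
Log2 fold change of each of the 41 tested members under anti-CTLA-4 against IgG, in control (left) and LDHA-KD tumours (right), with bars of 1 SE and dashed lines between the groups of genes. All points are grey because 0 members passed an adjusted p of 0.05. In control tumours 39 of 41 points lie above 0, and in LDHA-KD tumours 24 do. The points are not separate observations, because many members vary together by library.

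Upstream of these genes, the interferons themselves were scarce. Of 11 ligand genes only Ifng had enough counts to be tested, and Ifnb1, which encodes interferon-beta, ran from 0.0245 to 0.412 CPM. Of 15 receptor and JAK-STAT genes, 4 were higher in LDHA-KD tumours with IgG, or 26.7% called against 34.3% of all genes. With anti-CTLA-4 5 were higher and 1 lower, or 40% against 40.0% of all genes (20.2% higher and 19.8% lower). In either direction both shares were at or below the background. All calls with IgG were higher, however, and only 16.8% of all genes were higher there. Whether the shares differ was not tested. Ifngr1, the ligand-binding chain of the interferon-gamma receptor, was higher by 0.43 ± 0.06 (SE) and 0.48 ± 0.06 (SE) on the log2 scale (edgeR adjusted p = 1.93e-05 and 2.16e-06). Irf5 (0.80 and 0.71) and Tyk2 (0.32 and 0.35) were higher too, and Ifngr2, the second chain of that receptor, was lower with anti-CTLA-4 (-0.20, edgeR adjusted p = 0.0442).

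Other genes of the pathway are given from fixed lists. Of 19 other interferon-gamma targets, 9 were higher and 0 lower with IgG and again with anti-CTLA-4, or 47.4% called. Of all genes 34.3% and 40.0% were called, 16.8% and 20.2% as higher. Ido1, an enzyme that consumes tryptophan, was higher by 2.08 ± 0.41 (SE) and 1.89 ± 0.36 (SE) on the log2 scale. AW112010 rose by 1.77 with IgG, Serpina3g, a protease inhibitor, by 1.22 and 1.10, and Ciita, the activator of MHC class II genes, by 1.61 with anti-CTLA-4. Of 28 other antiviral genes, 6 were higher and 0 lower with IgG, or 21.4% called. With anti-CTLA-4 9 were higher and 2 lower, or 39.3% called. In either direction these shares lie below the 34.3% and 40.0% of all genes called. Most of the calls were higher, however, and only 16.8% and 20.2% of all genes were higher. Whether the shares differ was not tested. Sp100 (0.88 and 0.74), Adar (0.59 and 0.56) and Lgals3bp (0.69 and 0.64) were among the higher, and Ifitm3 (-0.47) and Oas1g (-0.43) were the lower. Because 57.6% of the 50-base words of Oas1a occur in Oas1g, the lower calls of Oas1a and Oas1g may rest in part on the same reads. Of 11 nucleic acid sensing genes, 7 were higher with IgG and 6 with anti-CTLA-4 (63.6% and 54.5%), among them the endosomal RNA receptor Tlr7 (1.14 and 1.26), the kinase Tbk1 (0.30 and 0.33) and the adaptor Mavs (0.32 and 0.29).

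Markers of immune cells differed between LDHA-KD and control tumours. Of all genes tested, 16.8% were higher and 17.5% lower with IgG, and 20.2% higher and 19.8% lower with anti-CTLA-4. Whether the share of any list below differs from these was not tested. All 6 T cell markers were higher in LDHA-KD tumours in both comparisons, and their summed level was 10.8 to 21.4 CPM in control IgG, 21.9 to 42.4 in control anti-CTLA-4, 43.4 to 64.9 in LDHA-KD IgG and 57.4 to 105 CPM in LDHA-KD anti-CTLA-4 libraries. All 6 cytotoxic and all 5 natural killer markers were higher in both as well. Of 7 macrophage markers 6 were higher with IgG and 7 with anti-CTLA-4, and their sum was 1171 to 2114 CPM in control IgG and 2746 to 3294 CPM in LDHA-KD IgG libraries. With anti-CTLA-4 it was 1416 to 1856 CPM in control and 3016 to 3383 CPM in LDHA-KD libraries. Of 5 plasmacytoid dendritic cell markers 5 were higher with IgG and 4 with anti-CTLA-4, with sums of 2.49 to 6.59 CPM in control IgG, 4.06 to 6.74 in control anti-CTLA-4, 9.97 to 15.5 in LDHA-KD IgG and 8.91 to 22.6 CPM in LDHA-KD anti-CTLA-4 libraries. Of 5 conventional dendritic cell markers 4 were higher and 1 lower in both comparisons, and of 6 neutrophil markers 1 was higher with IgG and 0 with anti-CTLA-4. Of 5 endothelial markers 1 was higher and 4 lower with IgG, and 1 higher and 2 lower with anti-CTLA-4. Of 5 fibroblast markers 1 was higher and 2 lower with IgG, and 2 higher with anti-CTLA-4, and their sum was 2446 to 5006 CPM in control anti-CTLA-4 and 2679 to 7210 CPM in LDHA-KD anti-CTLA-4 libraries, highest in LDHA-KD replicate 3. Of 3 adipocyte markers none passed in either comparison, of 4 skeletal muscle markers 1 was lower in both, and of 3 tested B cell markers 1 was higher in both. The adipocyte sum was 127.9 CPM in control anti-CTLA-4 replicate 5, the library highest for the Gbp, Igtp and Irgm genes, against 9.15 to 51.8 CPM in the other 4 of its group. That library was also highest of its group in the cytotoxic (68.5 CPM), natural killer (7.09 CPM), neutrophil (1223 CPM) and B cell (1.54 CPM) sums. It was lowest in the macrophage (1416 CPM) and epithelial (3542 CPM) sums, and at neither end in the rest. The part of any of these cell types in the level of the Gbp, Igtp and Irgm genes was not tested. Epithelial markers were lower in 2 of 6 with IgG and 4 of 6 with anti-CTLA-4, with sums of 3520 to 4586 CPM in control IgG, 3542 to 4338 in control anti-CTLA-4, 2976 to 3283 in LDHA-KD IgG and 2013 to 3246 CPM in LDHA-KD anti-CTLA-4 libraries. No gene of these lists was at 0 throughout the libraries. The part of these cell types in the higher level of Irf8, Gbp5 and Stat2 or in the lower level of Usp18, Isg20 and Ifit3 was not tested.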

How the data were processed

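Polyadenylated RNA of 19 tumour samples was sequenced from 500 ng of total RNA each. The deposited values are raw counts per gene that the authors made with HTSeq 0.5.3 on build mm10, per the submitters' processing notes, with no normalization; Picard 1.124 is also named, without its role. The aligner, annotation release and strand setting are not given in the sources used here, so overlapping or near-identical genes may share reads.

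Reads that no gene received (26.2% to 28.7% of records) were left out. Counts were tested in R 4.3.3 with edgeR 4.0.16 (filterByExpr, TMM factors, quasi-likelihood F test, 1 coefficient per group over all 19 libraries, Benjamini-Hochberg over 16763 genes, threshold 0.05) in 5 contrasts. Alternatives used DESeq2 1.42.0 and limma 3.58.1. The fit was tested on simulated counts. A floor of 3 counts covers counting error only. Exon lengths and 50-base words come from GENCODE M21.

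Members and lists were chosen with earlier results of these data known. Every member is named; values in every library are given for 13 fixed members and, per comparison, the 4 with the smallest p in each direction past the threshold; pathway lists name up to 3 genes, and Ifng always; 1 further gene fixed for naming is not reported here.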

Additional observations from a re-analysis of the deposited data

Results flagged for a closer look

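Single libraries lay far from the others of their group in 8 of 184 groups of values examined, where chance alone gives about 9.2. Control IgG replicate 4 was far below its group for Gbp9 (42.5 CPM, the next 79.7), Iigp1 (50.7 CPM, the next 165) and Ifng (0.298 CPM, the next 0.714). Control anti-CTLA-4 replicate 5 was far above its group for Ifit1 (95.7 CPM, the next 78.0), Oasl2 (218 CPM, the next 151) and Zbp1 (193 CPM, the next 120). LDHA-KD anti-CTLA-4 replicate 2 was far below its group for Isg20 (44.4 CPM, the next 51.9) and Irf8 (71.8 CPM, the next 94.8).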

How the results depend on the processing

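In LDHA-KD against control tumours under IgG, leaving out 1 library at a time gave 3 to 9 members called, with 3 (Irf8 and Dhx58 higher, Usp18 lower) without control IgG replicate 4 and 9 without control IgG replicate 1, while all genes called ran from 4710 to 6023. Under anti-CTLA-4 the range was 6 to 13, with 6 without control anti-CTLA-4 replicate 3 and 13 without control IgG replicate 1, with 5813 to 7182 of all genes. Library totals alone gave 7 and leaving out the 4 libraries apart on the second component, an alternative chosen after seeing the data, gave 4; the cause was not tested. Irf8 in both comparisons, Dhx58 under IgG and Usp18 and Isg20 under anti-CTLA-4 were called in each of the 27 alternatives run. Over all members and alternatives, 63 calls were lost (15 under IgG and 48 under anti-CTLA-4) and 24 gained (9 and 15). The blockade comparisons and the interaction called 0 members under every alternative. For them, leaving out 1 library moved the difference in median between the Gbp, Igtp and Irgm genes and the Ifit, Oas and Mx genes from -0.15 to 0.35 in control tumours, 0.23 to 0.45 in LDHA-KD tumours and -0.08 to 0.47 for the interaction, so its sign depends on single libraries in control tumours and in the interaction. The labels do not say that a replicate number marks anything shared. Deviations of same-numbered libraries had a median r of 0.116 (-0.212 to 0.392 over 27 pairs) against -0.0422 for other numbers, so the correlation was not over 0.1 in every pair, and 5 of 19 libraries were closest to their own number. With the replicate number as a replicate block 5, 11, 0, 0 and 0 members were called in the 5 contrasts; Ifit2 was lost under IgG, and under anti-CTLA-4 Dhx58 was lost and Bst2 gained as lower. The fit of only the groups compared has no value for the interaction. Depth limits the second Gbp6 row, which was not tested.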
